A study of Arabidopsis thaliana with 12 samples.

Results

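The 10 genes described here are the alpha-tubulin genes TUA2, TUA3, TUA4, TUA5 and TUA6 and the beta-tubulin genes TUB2, TUB4, TUB5, TUB6 and TUB8 of Arabidopsis thaliana. They were taken by gene identifier from the 33197 genes with an identifier in the deposited table, and their transcript levels were followed across the 12 leaf libraries of the series. The libraries form 4 groups of 3, all from leaves at 18 days of leaf age: the Columbia wild type, and lines in the same ecotype labelled anac017, anac082 and anac090. Per the labels, the lines carry T-DNA insertions in genes of NAC transcription factors. The labels do not give the insertion allele or site of each line, and they do not say whether replicate libraries come from different plants. The p-values below therefore measure the spread between these libraries, which may be technical. Because whole leaves were used, fewer cells of a type and less RNA per cell cannot be told apart.

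Alpha- and beta-tubulin form a dimer that binds GTP and adds to the ends of microtubules, the hollow filaments that build the spindle of dividing cells and the cortical array beneath the plasma membrane of growing plant cells. In expanding leaf cells the cortical array guides the enzyme complexes that lay cellulose into the wall. Plants carry a small gene family for each subunit, with members that encode identical or nearly identical proteins. In animal cells, free tubulin also lowers the stability of tubulin mRNA through the first residues of the growing chain.

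The values are log2 values that were quantile normalized between libraries, so the read depth behind them is unknown. Each tubulin gene is compared with its own level in other groups and not with other genes, since no source used here states whether values were scaled by gene length. All 10 tubulin genes passed the filter on low values, as did 16817 genes in total. Before any tubulin result, 3 facts of the libraries bear on the comparisons. The transcript of NAC017 was higher in the libraries labelled anac017 than in wild type by 0.86 ± 0.14 (log2, SE, limma, adjusted p = 0.0152), and that of NAC082 was higher in the libraries labelled anac082 by 4.81 ± 0.11 (adjusted p = 2.7e-09). The transcript of NAC090 in the libraries labelled anac090 differed from wild type by -0.60 ± 0.30 (adjusted p = 0.192), so only the labels, and not a lower target transcript, identify the lines. On the first principal component of the tested genes, which held 51.0% of the variance, anac082 replicate 1 lay at -27.0, near the wild type libraries at -35.6 to -29.7, and anac090 replicate 3 lay at 74.1, against 15.9 and -12.7 for the other anac090 libraries.

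On the TAIR10 coordinates of the deposited table, counted from 1, the alpha-tubulin genes lie on 3 chromosomes. TUA2 (AT1G50010) spans chr1:18517586-18520000 and TUA4 (AT1G04820) spans chr1:1356191-1358386. TUA6 (AT4G14960) spans chr4:8548492-8550453. TUA3 (AT5G19770) at chr5:6682493-6684579 and TUA5 (AT5G19780) at chr5:6687074-6689171 are close neighbours on opposite strands. Of the beta-tubulin genes, TUB5 (AT1G20010) spans chr1:6937795-6940582, and the other 4 are on chromosome 5, TUB6 (AT5G12250) at chr5:3961106-3963522, TUB8 (AT5G23860) at chr5:8042876-8044819, TUB4 (AT5G44340) at chr5:17859195-17861101 and TUB2 (AT5G62690) at chr5:25181415-25183729. The table itself gives 1 symbol to TUA2 and TUA4 and 1 symbol to TUA3 and TUA5, so the genes were matched by identifier.

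Sequence similarity bears on which tubulin genes can be told apart by short reads. The first 90 coding bases below, which show how close the copies are over 1 short stretch, are from the RefSeq annotation of the TAIR10.1 assembly, written 5′ to 3′ on the coding strand, and capitals mark positions that differ within a set. TUA3 and TUA5 differ at 9 of these 90 bases and TUA2, TUA4 and TUA6 at 4. The beta-tubulin genes TUB5, TUB6 and TUB4 differ at 19.
TUA3: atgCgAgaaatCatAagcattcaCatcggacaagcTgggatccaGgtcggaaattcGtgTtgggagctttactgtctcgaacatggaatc
TUA5: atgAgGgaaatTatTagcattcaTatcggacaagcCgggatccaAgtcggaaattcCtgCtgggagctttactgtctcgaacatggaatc
TUA2: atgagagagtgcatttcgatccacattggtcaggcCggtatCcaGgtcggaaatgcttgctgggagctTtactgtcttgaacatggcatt
TUA4: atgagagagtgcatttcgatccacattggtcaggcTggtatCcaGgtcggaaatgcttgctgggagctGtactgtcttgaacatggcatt
TUA6: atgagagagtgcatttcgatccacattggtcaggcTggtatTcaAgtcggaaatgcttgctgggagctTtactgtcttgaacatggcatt
TUB5: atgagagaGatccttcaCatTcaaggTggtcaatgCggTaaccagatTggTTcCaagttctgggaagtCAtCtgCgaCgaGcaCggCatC
TUB6: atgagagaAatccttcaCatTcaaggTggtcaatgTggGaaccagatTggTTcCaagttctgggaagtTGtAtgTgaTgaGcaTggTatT
TUB4: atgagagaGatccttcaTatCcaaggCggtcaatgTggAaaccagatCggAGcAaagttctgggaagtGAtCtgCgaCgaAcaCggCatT

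Over the whole coding sequence the order differed. TUA3 and TUA5 were the closest of the 10 genes, 97.9% identical, with 29 differing columns and the same protein. TUA2 and TUA4 were 96.6% identical and also encode 1 protein, from which TUA6 differs at 2 residues. The 5 beta-tubulin genes were more divergent, at 78.7% to 82.6% identity of coding sequence and 90.4% to 95.6% of protein. Each transcript was cut into overlapping windows of 100 bases, and those found unchanged in another tubulin transcript were counted. They were 15.2% of the TUA3 windows and 16.9% of the TUA5 windows, shared with each other. For TUB2 they were 11.3% of the windows, shared with TUB3, a gene with the same protein as TUB2. For TUA4, TUA2 and TUA6 the shares were 5.50%, 3.52% and 2.47%, and TUB4, TUB5, TUB6 and TUB8 had no such window. Values of TUA3, TUA5 and TUB2 are therefore uncertain where the submitters' counting could split reads between copies. TUA2, TUA5 and TUB6 overlap other annotated genes, and no source used here says whether the counting used strand.

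In the libraries labelled anac017 and anac090, where the target transcript was not lower by the test, most tubulin genes lay below wild type. The wild type group mean was the highest of the 4 for each of the 10 genes. The share of all tested genes with wild type highest was not counted, so this count has no baseline. The median log2 difference from wild type over the 10 genes was -0.47 in anac017, -0.22 in anac082 and -0.45 in anac090, against -0.02, -0.01 and -0.03 over all tested genes. It was -0.36 in anac082 without replicate 1 and -0.32 in anac090 without replicate 3. Few single genes passed the threshold of 0.05 on the adjusted p. TUB8 alone fell, in anac090, and TUB4 was the gene nearest to its wild type level in anac017 and anac090. These 3 comparisons share their wild type libraries, so a high wild type value lowers all of them together.

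**Figure D1:**
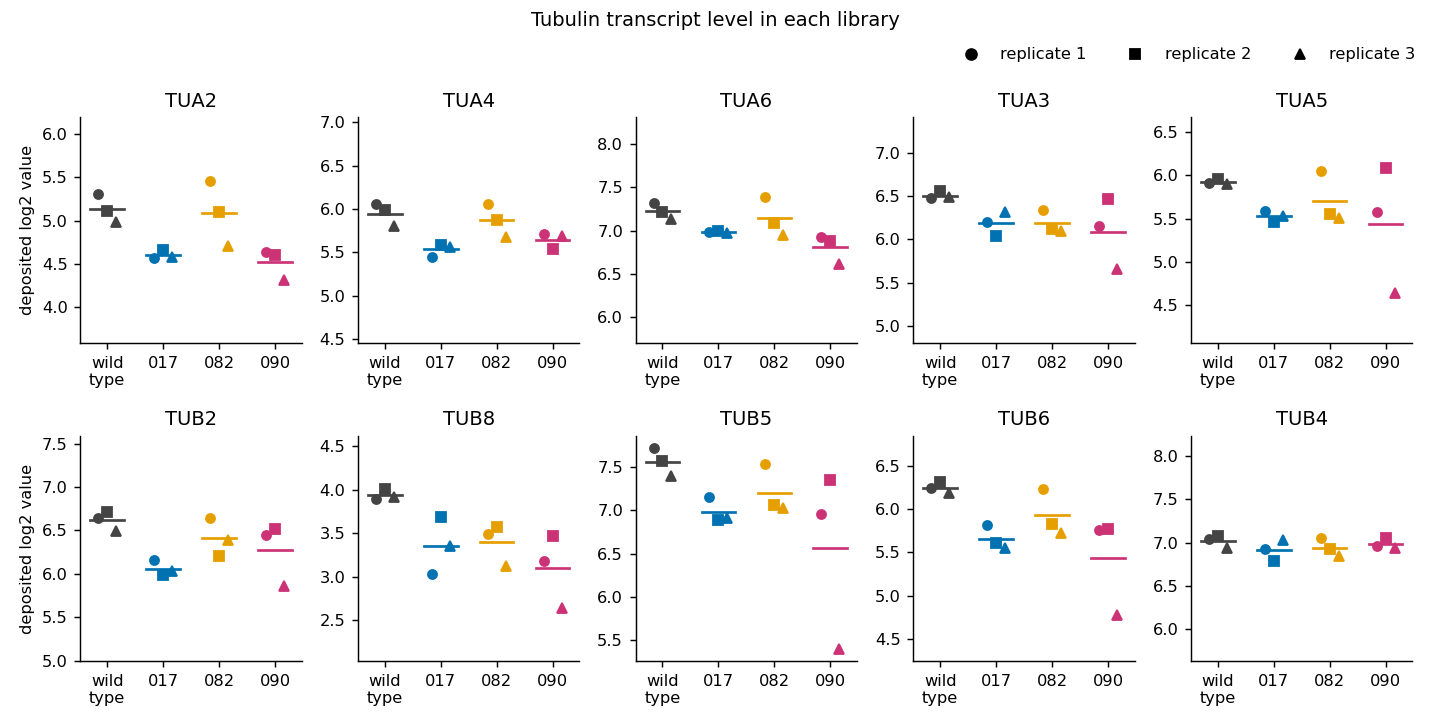
Deposited log2 value of each tubulin gene (y axis, a span of equal length in each panel) in each library by group (x axis, with 017, 082 and 090 for the lines labelled anac017, anac082 and anac090), with replicates as symbols and the group mean as a bar. Wild type libraries sit above the 3 anac017 libraries in 9 of the 10 panels, and anac090 replicate 3 is the low triangle of TUB5 at 5.40.

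TUA2, TUA4 and TUA6 form the closest group of alpha-tubulins by protein. TUA6, often used as a fluorescent marker of plant microtubules, and TUA4 are also genes in which amino acid changes give twisted growth. TUA2 read 5.30, 5.12 and 4.98 in the wild type libraries, 4.57, 4.66 and 4.58 in anac017, 5.46, 5.10 and 4.71 in anac082, and 4.64, 4.60 and 4.32 in anac090. The anac017 and anac090 libraries all lay below the lowest wild type library, and the anac082 libraries ran from above the highest wild type library to below the lowest. The difference of TUA2 from wild type was -0.53 ± 0.17 in anac017 (SE, limma, adjusted p = 0.101, and 0.0423 in a fit blocked on replicate number) and -0.61 ± 0.17 in anac090 (adjusted p = 0.0523, and 0.0212 with the block). In anac082 it was -0.05 ± 0.17, with a 95% interval from -0.42 to 0.33.

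TUA4 read 6.05, 5.98 and 5.80 in wild type, 5.45, 5.59 and 5.56 in anac017, 6.06, 5.87 and 5.68 in anac082, and 5.71, 5.54 and 5.69 in anac090. Its anac017 libraries were the lowest group and did not overlap wild type, nor did those of anac090, while those of anac082 straddled wild type. The difference of TUA4 was -0.41 ± 0.11 in anac017 (limma, adjusted p = 0.0719, and 0.0481 with the block) and -0.30 ± 0.11 in anac090 (adjusted p = 0.0951). TUA6 read 7.32, 7.22 and 7.13 in wild type, 6.983, 6.998 and 6.977 in anac017, 7.39, 7.09 and 6.95 in anac082, and 6.92, 6.88 and 6.62 in anac090. The 3 anac017 values were nearly equal, with an SD of 0.01, and all of them lay above the 3 anac090 values. The difference of TUA6 from wild type was -0.41 ± 0.12 in anac090 (limma, adjusted p = 0.0586, and 0.0239 with the block) and -0.24 ± 0.12 in anac017 (adjusted p = 0.239).

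These 3 genes also share stretches of promoter. The 250 bases before each RefSeq gene start in TAIR10.1 are shown because these are the only promoters of the 10 genes with shared runs of at least 12 bases. The anac082 means of TUA2, TUA4 and TUA6 lay at -0.05, -0.07 and -0.08 relative to wild type, and so did that of TUB4, at -0.08, which shares no such run. TUA2 is at chr1:18517336-18517585 on the plus strand, TUA4 at chr1:1358548-1358797 on the minus strand and TUA6 at chr4:8550496-8550745 on the minus strand. Each is written 5′ to 3′ in the direction of transcription, and capitals mark runs of at least 12 bases found unchanged in another of the 3.
TUA2: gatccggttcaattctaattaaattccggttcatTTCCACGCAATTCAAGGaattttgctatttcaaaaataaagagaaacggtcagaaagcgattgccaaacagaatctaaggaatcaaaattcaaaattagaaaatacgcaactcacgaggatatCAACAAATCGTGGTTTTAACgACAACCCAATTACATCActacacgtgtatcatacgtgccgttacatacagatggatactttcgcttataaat
TUA4: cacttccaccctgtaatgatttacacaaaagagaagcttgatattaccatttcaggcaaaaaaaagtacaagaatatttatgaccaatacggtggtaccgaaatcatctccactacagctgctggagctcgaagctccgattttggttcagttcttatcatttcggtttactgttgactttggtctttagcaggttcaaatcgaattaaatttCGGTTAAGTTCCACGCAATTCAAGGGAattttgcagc
TUA6: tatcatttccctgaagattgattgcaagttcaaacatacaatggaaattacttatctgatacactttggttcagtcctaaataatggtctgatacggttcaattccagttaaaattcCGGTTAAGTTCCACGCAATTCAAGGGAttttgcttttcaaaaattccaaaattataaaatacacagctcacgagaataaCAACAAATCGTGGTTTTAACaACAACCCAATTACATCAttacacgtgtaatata
The longest run shared by TUA4 and TUA6 had 27 bases, that of TUA2 and TUA6 had 20 and that of TUA2 and TUA4 had 17. Over the other 42 pairs of the 10 genes the longest shared run had 11 bases, in TUB2 and TUB5.

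In the window from 250 bases before to 50 bases after the start, searched on both strands, the G-box core CACGTG was found in TUA2 and TUA6, which is 2 of 10 genes, against 7.68% of the 27443 promoters of protein-coding genes. It lies 52 to 47 bases before the start in TUA2 and 13 to 8 bases before it in TUA6. In both genes it closely follows a run that the 2 promoters share, so the 2 matches may not be independent. TATAAA was found in 5 of the 10 windows, those of TUA2, TUA5, TUA6, TUB5 and TUB8, against 52.1% of promoters. The site II letters TGGGCC were found in TUB2 and TUB5 (15.5% of promoters), and TGGGCT in TUB5 (14.2%). In TUB2 the matches on the 2 strands overlap. The telo box letters AAACCCTA were found in TUA3 (6.22%). The mitochondrial dysfunction motif, known as a site bound by ANAC017 and related factors, was searched only as CTTG and CAAG with any 5 bases between them. That form was in none of the 10 windows and in 0.904% of promoters. Forms with other letters at the ends were not searched, so these counts do not show whether the site is absent.

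TUA3 and TUA5, the neighbouring pair, encode the same alpha-tubulin and share the most sequence. TUA3 read 6.47, 6.56 and 6.48 in wild type, 6.20, 6.04 and 6.31 in anac017, 6.34, 6.12 and 6.10 in anac082, and 6.15, 6.46 and 5.66 in anac090. Each of the 9 mutant libraries lay below the 3 wild type libraries, anac090 replicate 2 by the least. The difference of TUA3 from wild type was -0.32 ± 0.17 in anac017, -0.32 ± 0.17 in anac082 and -0.41 ± 0.17 in anac090, with limma adjusted p-values of 0.252, 0.697 and 0.123. Without anac090 replicate 3 the anac090 value was -0.20. TUA5 read 5.91, 5.96 and 5.90 in wild type, 5.59, 5.47 and 5.53 in anac017, 6.05, 5.56 and 5.51 in anac082, and 5.58, 6.09 and 4.65 in anac090. Only its anac017 libraries lay apart from wild type as a group, and its anac090 libraries ran from the highest to the lowest of the 12. The difference of TUA5 was -0.40 ± 0.29 in anac017 and -0.49 ± 0.29 in anac090 (limma, adjusted p = 0.387 and 0.257). The anac090 value was -0.09 without replicate 3.

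Among the beta-tubulins, TUB8 was the gene that passed the test. TUB8 read 3.89, 4.01 and 3.92 in wild type, 3.03, 3.69 and 3.35 in anac017, 3.49, 3.57 and 3.12 in anac082, and 3.18, 3.47 and 2.64 in anac090. All 9 mutant libraries lay below the 3 wild type libraries. TUB8 fell in anac090 by 0.84 ± 0.22 on the log2 scale (SE, limma, adjusted p = 0.0458, and 0.0207 with the block), to 55.7% of the wild type value on the scale of value plus 1. The TUB8 difference from wild type was -0.59 ± 0.22 in anac017 (adjusted p = 0.138) and -0.54 ± 0.22 in anac082 (adjusted p = 0.664). The deposited scale has 1 added to each value, which understates the change of genes with low values. Over 20 settings of the fit, the TUB8 difference in anac090 ran from -1.03 to -0.61, with limma adjusted p-values from 0.000973 to 0.180. TUB8 passed the threshold in only 6 of these 20 settings.

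TUB5 had the widest spread. It read 7.72, 7.56 and 7.40 in wild type, 7.15, 6.88 and 6.91 in anac017, 7.53, 7.06 and 7.03 in anac082, and 6.96, 7.34 and 5.40 in anac090. The anac017 and anac090 libraries lay below wild type, and anac090 replicate 3 lay 2.16 below the wild type mean, the lowest relative value of any of the 10 genes in any library. The difference of TUB5 was -0.99 ± 0.39 in anac090 (limma, adjusted p = 0.111) and -0.41 without replicate 3. It was -0.58 ± 0.39 in anac017 (adjusted p = 0.358).

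TUB6, used like TUA6 in fluorescent reporters of microtubules, read 6.24, 6.31 and 6.18 in wild type, 5.82, 5.61 and 5.55 in anac017, 6.23, 5.83 and 5.72 in anac082, and 5.76, 5.77 and 4.78 in anac090. Its anac017 and anac090 libraries lay below wild type and anac082 replicate 1 lay within it. The difference of TUB6 was -0.59 ± 0.24 in anac017 (limma, adjusted p = 0.158) and -0.81 ± 0.24 in anac090 (adjusted p = 0.0584, and 0.0259 with the block). Without anac090 replicate 3 the anac090 value was -0.48.

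TUB2 read 6.64, 6.72 and 6.50 in wild type, 6.15, 5.98 and 6.04 in anac017, 6.64, 6.20 and 6.39 in anac082, and 6.44, 6.51 and 5.86 in anac090. Its anac017 libraries lay apart from wild type, and in anac090 replicate 2 lay just above the lowest wild type library. The difference of TUB2 was -0.56 ± 0.17 in anac017 (limma, adjusted p = 0.0878) and -0.34 ± 0.17 in anac090 (adjusted p = 0.179), where it was -0.14 without replicate 3. TUB4 read 7.04, 7.08 and 6.94 in wild type, 6.92, 6.78 and 7.03 in anac017, 7.05, 6.93 and 6.84 in anac082, and 6.96, 7.05 and 6.94 in anac090. Its groups overlapped throughout. The TUB4 intervals were narrow, from -0.30 to 0.09 in anac017, from -0.27 to 0.12 in anac082 and from -0.23 to 0.16 in anac090 (95%, log2 difference from wild type).

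**Figure D2:**
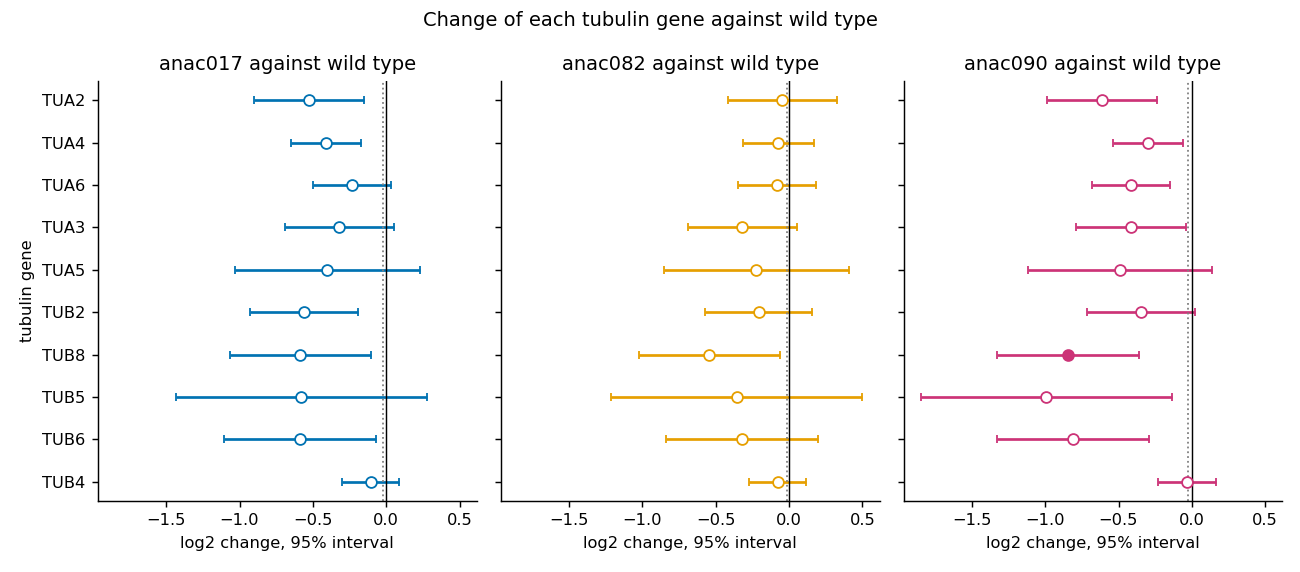
Log2 difference from wild type with its 95% interval (x axis) for each tubulin gene (y axis) in the lines labelled anac017, anac082 and anac090, where a filled point marks an adjusted p under 0.05 and the dotted line the median of all tested genes. All points lie below 0, TUB8 in anac090 at -0.84 is the filled one, and TUB4 sits near 0.

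Taken by comparison, no tubulin gene was called by limma in anac017, where 0.612% of all tested genes were called lower. At an unadjusted p under 0.05, 5 of the 10 were lower, TUA2, TUA4, TUB2, TUB6 and TUB8, against 13.2% of tested genes. All 3 anac017 libraries lay below all 3 wild type libraries for 9 of the 10 genes, all but TUB4, against 22.6% of tested genes. With the replicate block 2 genes were called lower, TUA2 and TUA4, against 3.05% of tested genes. The count depended on libraries that enter this comparison only through the shared spread, and moved with the count over all genes. It was 6 without anac090 replicate 3, where 17.6% of tested genes were called in either direction, and 2 without anac090 replicate 2, where 9.83% were. Without both libraries that stand apart, anac082 replicate 1 and anac090 replicate 3, it was 9, where 21.7% were.

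In anac082 no tubulin gene was called by limma, where 0.0178% of tested genes were called lower, and 1 gene, TUB8, had an unadjusted p under 0.05, against 3.46% of tested genes. Groups did not overlap for TUA3 and TUB8, 2 of the 10 genes, against 10.3% of tested genes. Without anac082 replicate 1, the library near wild type, 8 of the 10 genes lay wholly below wild type, all but TUA2 and TUA4, against 22.6% of tested genes. Without that library and anac090 replicate 3, TUB6 was called in anac082, at -0.47 (limma, adjusted p = 0.0325), where 4.28% of tested genes were called in either direction.

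In anac090 TUB8 was the 1 gene called of 10, where 3.65% of tested genes were called lower. At an unadjusted p under 0.05, 7 of the 10 were lower, against 18.4% of tested genes. Groups did not overlap for 7 of the 10, all but TUA5, TUB2 and TUB4, against 18.2% of tested genes. The number was again 7 of 10 without anac090 replicate 3, against 21.1% of tested genes. With the replicate block, TUA2, TUA6, TUB6 and TUB8 were called lower, which is 4 of 10 against 10.1% of tested genes. Without anac090 replicate 2 the count was 7, where 29.8% of tested genes were called in either direction, and without anac082 replicate 1 it was 2, where 6.27% were. It was 0 without any other single library, anac090 replicate 3 among them, with 0.0654% to 2.24% of tested genes called.

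Between the mutant lines no tubulin gene was called by limma. In anac017 against anac082, where 0.892% of tested genes were called, the difference was negative for all 10, with a median of -0.20. Over all tested genes, 53.0% of differences were negative, with a median of -0.01. The anac082 mean includes replicate 1, the library near wild type. At an unadjusted p under 0.05, 2 genes were lower in anac017, against 5.08% of tested genes. These were TUA2, at -0.48 ± 0.17 (limma, adjusted p = 0.289), and TUA4, at -0.34 ± 0.11 (adjusted p = 0.242). In anac082 against anac090, where 0.0119% of tested genes were called, 2 genes were higher in anac082 at an unadjusted p under 0.05, against 6.11% of tested genes. These were TUA2, at 0.57 ± 0.17 (adjusted p = 0.358), and TUA6, at 0.33 ± 0.12 (adjusted p = 0.387). In anac017 against anac090, where 1.48% of tested genes were called, no gene reached an unadjusted p under 0.05, and the median difference was 0.09.

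By group mean, anac082 came second after wild type for 9 of the 10 genes, and anac090 did for TUB4. The lowest group was anac090 for 7 genes and anac017 for TUA4, TUB2 and TUB4. Wild type and the next group overlapped in 8 genes and were separate in TUA3 and TUB8. Lower in the order, anac082 and anac017 were separate in TUA2, and anac017 and anac090 in TUA6, and the other neighbours overlapped. Such orders and separations were not counted over all tested genes, so they have no baseline. The neighbours were also picked by ranking these same means.

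The libraries of a line differed in how far the tubulin genes lay below wild type as a group. The mean of the 10 genes relative to wild type was -0.43, -0.44 and -0.43 in the anac017 libraries, 0.01, -0.28 and -0.41 in the anac082 libraries, and -0.38, -0.24 and -0.96 in the anac090 libraries. The wild type libraries lay at 0.05, 0.04 and -0.09. The anac017 libraries were alike, with 10, 10 and 9 genes below the lowest wild type library. In anac082 those counts were 2, 8 and 10, and in anac090 they were 9, 7 and 9. The share of all tested genes below the lowest wild type library was not counted for single libraries, so these counts have no baseline. The library closest to wild type among the mutants, anac082 replicate 1, and the lowest, anac090 replicate 3, are the libraries that stand apart on the first principal component. The tubulin genes are part of the genes that define that component, and its part in the tubulin levels was not tested.

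**Figure D3:**
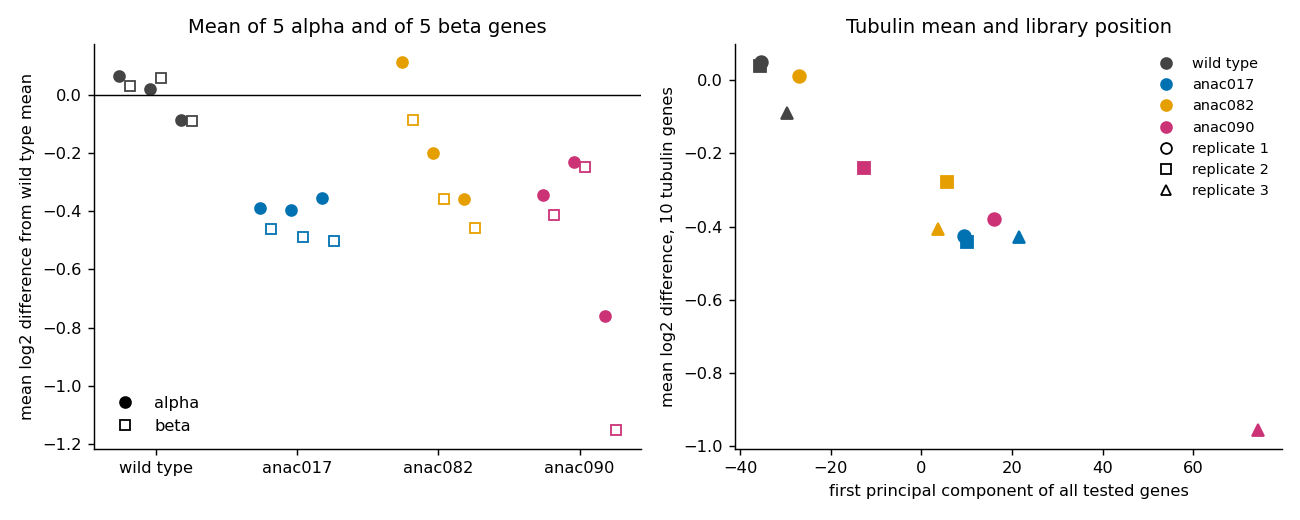
Left, mean log2 difference from the wild type mean (y axis) of the 5 alpha-tubulin (filled) and 5 beta-tubulin genes (open) for each library, by group (x axis). Right, the mean over the 10 genes (y axis) against the position of the library on the first principal component of all tested genes (x axis), where anac090 replicate 3 lies alone at 74.1 and -0.96 and anac082 replicate 1 lies beside the wild type libraries.

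By the means over genes, which were not tested, the beta-tubulin genes lay further below wild type than the alpha-tubulin genes. The mean over the 5 alpha-tubulin genes was -0.38 ± 0.02 in anac017, -0.15 ± 0.24 in anac082 and -0.45 ± 0.28 in anac090 (SD, n = 3 libraries). Over the 5 beta-tubulin genes it was -0.48 ± 0.02, -0.30 ± 0.19 and -0.60 ± 0.48. The beta mean minus the alpha mean was negative in each of the 9 mutant libraries, at -0.11 ± 0.04 in anac017, -0.15 ± 0.05 in anac082 and -0.16 ± 0.20 in anac090. In the wild type libraries it was -0.04, 0.04 and -0.0023. The anac090 value rests largely on replicate 3, at -0.39, against -0.07 and -0.02 in the others.

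Of the other 7 tubulin genes of the list, 6 were tested and none was called by limma in a comparison with wild type. Their median differences were -0.24 in anac017, -0.16 in anac082 and -0.35 in anac090. TUB3, which encodes the same protein as TUB2, read 5.01, 5.22 and 5.06 in wild type and 4.10, 4.16 and 3.99 in anac017. Its anac017 libraries lay well apart from wild type, at a difference of -1.02 ± 0.25 (limma, adjusted p = 0.0602, and 0.0376 with the block). In anac090 TUB3 differed by -0.77 ± 0.25 (adjusted p = 0.0720, and 0.0481 with the block). Without replicate 3 it lay at -0.42. TUB7, another beta-tubulin, differed by -0.91 ± 0.34 in anac017 and -0.92 ± 0.34 in anac090 (adjusted p = 0.134 and 0.0944), the latter -0.49 without replicate 3. TUA1 and TUB9, known best from pollen, were near wild type in anac017, at -0.06 ± 0.10 and -0.02 ± 0.12. The gamma-tubulin gene TUBG1, whose product nucleates microtubules, differed by -0.26 in anac017, and the second gamma-tubulin gene, AT5G05620, by -0.22. TUB1 was below the filter on low values.

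Newly made tubulin is folded by prefoldin, the CCT chaperonin and the tubulin cofactors. The 19 genes of this machinery had medians near 0, at -0.01, 0.04 and -0.05 in anac017, anac082 and anac090. None of the 19 was called in a comparison with wild type, and at an unadjusted p under 0.05 limma gave 0, 1 and 1 lower, against 13.2%, 3.46% and 18.4% of tested genes. In anac090 it gave 2 higher at that level, the prefoldin genes PFD6, at 0.30 ± 0.13, and AT3G22480, at 0.29 ± 0.13 (adjusted p = 0.139 and 0.145). PFD1, a prefoldin subunit, was the gene of the list furthest from wild type, at -1.0 ± 0.18 in anac082 (limma, adjusted p = 0.259).

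Of 22 genes for microtubule-associated, severing and nucleating proteins, 15 were tested, and 13 of the 15 lay below wild type in each line, with medians of -0.24, -0.12 and -0.23. Over all tested genes, 53.3%, 52.6% and 53.9% lay below wild type. None of the 15 was called by limma, while 8, 1 and 6 were lower at an unadjusted p under 0.05, against 13.2%, 3.46% and 18.4% of tested genes. SPR1 was the 1 gene higher at that level in anac017 and in anac090. FASS, a phosphatase subunit that organises cortical microtubules, differed by -0.28 ± 0.08 in anac017 and -0.27 ± 0.08 in anac090 (adjusted p = 0.0796 and 0.0575, and 0.0417 in anac090 with the block). CLASP, which stabilises growing microtubule ends, differed by -0.29 ± 0.10 in anac090 (adjusted p = 0.0764, and 0.0333 with the block). WDL1 differed by -0.57 ± 0.16 in anac017 (adjusted p = 0.0793). SPR1, a plus-end protein, stood on the other side of wild type, at 0.47 ± 0.14 in anac090 (adjusted p = 0.0633).

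The 9 genes of primary wall cellulose synthesis all lay below wild type in each line, as the 10 tubulin genes did, with medians of -0.38, -0.32 and -0.56. Without anac090 replicate 3 the anac090 median was -0.25. For 8 of the 9, all 3 anac017 libraries lay below all 3 wild type libraries, against 22.6% of tested genes. The same held in anac082 for 8 of the 9, against 10.3% of tested genes. In anac090, with replicate 3 kept, it held for 1 of the 9, against 18.2% of tested genes. None was called by limma, and 3, 1 and 6 were lower at an unadjusted p under 0.05, against 13.2%, 3.46% and 18.4% of tested genes. The cellulose synthase genes CESA5, CESA2 and CESA6 differed by -0.67 ± 0.21, -0.60 ± 0.23 and -0.64 ± 0.26 in anac017 (adjusted p = 0.0964, 0.144 and 0.158). In anac090 CESA2 differed by -0.70 ± 0.23 (adjusted p = 0.0735, and 0.0441 with the block). Without replicate 3 it lay at -0.37. The actin genes, of the other filament system, had medians of -0.06, -0.02 and -0.21 over the 6 tested of 8. ACT3 alone among them fell, by 0.87 ± 0.18 in anac017 and by 0.90 ± 0.18 in anac090 (limma, adjusted p = 0.0359 and 0.0307). ACT3 has a close paralog, ACT1, with which reads may be shared. ACT2, a main actin of leaves, differed by 0.09 ± 0.10 in anac017 (adjusted p = 0.602).

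**Figure D4:**
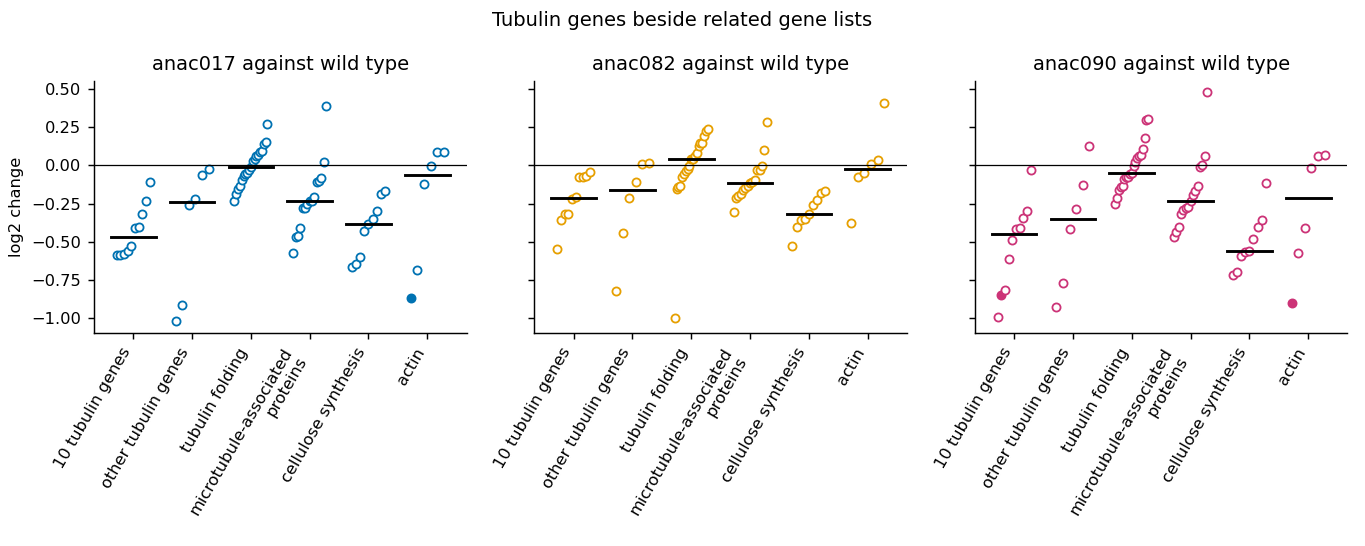
Log2 difference from wild type (y axis) of each tested gene of the 10 tubulin genes and 5 related lists (x axis) in the lines labelled anac017, anac082 and anac090, with the median as a bar and filled points for an adjusted p under 0.05. The bars of the tubulin and cellulose lists lie below 0 in each panel, while that of the folding list lies between -0.05 and 0.04.

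Summed levels of some cell type markers also lay apart between the groups. The labelled tissue was checked with the summed back-transformed level of 5 leaf photosynthesis genes. It was 7800 to 8283 in wild type, 7357 to 7913 in anac017, 7829 to 8258 in anac082 and 6641 to 7555 in anac090. The 5 markers of dividing cells, which build spindles, were all below the filter. Their sum was 2.51 to 2.89 in wild type, 1.40 to 2.12 in anac017, 1.66 to 2.59 in anac082 and 1.76 to 2.57 in anac090. Of 4 epidermis and trichome markers PDF1 and MYB0 were at 0 in all libraries and 1, ATML1, was tested. Their sum was 28.6 to 29.7 in wild type, 20.1 to 21.7 in anac017, 18.2 to 26.3 in anac082 and 10.9 to 24.2 in anac090. ATML1 differed from wild type by -0.47, -0.48 and -0.71 in anac017, anac082 and anac090, with limma adjusted p = 0.0723 in anac090 and 0.0474 there with the block. The sum of the 4 guard cell markers was 29.1 to 31.3 in wild type, 23.1 to 24.4 in anac017, 23.2 to 30.3 in anac082 and 27.8 to 31.7 in anac090. The sum of the 4 vascular markers was 363 to 488 in wild type and 539 to 647, 454 to 526 and 393 to 588 in the 3 lines. Its members did not go together, since the sugar exporter gene SWEET12 rose by 1.91 ± 0.36 in anac017 and by 1.39 ± 0.36 in anac090 (limma, adjusted p = 0.0286 and 0.0465) and SWEET11 differed by 0.80 and 0.53. SUC2, the phloem sucrose loader, differed by 0.0031 and -0.21, and APL, a phloem identity factor, by -0.22 and -0.13. Of 3 flower and meristem markers AP1 and STM were at 0 in all libraries, and the sums were 0.088 to 1.16. The part of these cell types in the tubulin levels was not tested.

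Within the family, patterns differed in how closely they followed the common one. The root mean square distance from the mean pattern of the 10 genes over the 12 libraries was smallest for TUA3, at 0.117 log2 units, and TUA6, at 0.120. It was 0.134 for TUB2, 0.148 for TUB6, 0.158 for TUA5 and 0.166 for TUA2, and larger for TUA4 at 0.207 and TUB8 at 0.213. TUB4, nearly level across groups, lay at 0.239, and TUB5, low in anac090 replicate 3, at 0.326. Outside the tubulin family, the tested genes with the pattern closest to the mean of the 10 were a thioredoxin superfamily gene, AT1G21350, at 0.0593, the monothiol glutaredoxin gene AT5G18600 at 0.0743, the cysteine synthase gene CYSD1 at 0.0768, the plastid sigma factor gene SIG2 at 0.0769 and MAP65-2, a gene for a microtubule-bundling protein, at 0.0770. MAP65-2 differed from wild type by -0.41, -0.16 and -0.47 in anac017, anac082 and anac090 (limma, adjusted p = 0.186, 0.804 and 0.108, and 0.0370 in anac090 with the block). Without anac090 replicate 3 the latter was -0.28.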

How the data were processed

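The submitters measured poly(A) RNA from leaves, as strand-specific TruSeq libraries read on an Illumina HiSeq instrument, per the labels' protocols. CASAVA 1.8.2, TopHat, Cufflinks and the build TAIR10 are named in the submitters' processing notes, without roles. The deposited values are log2 values, judged from their range as log2 of an abundance plus 1. At equal rank the libraries differ by at most 0.0818, so they were quantile normalized before deposit, and a shift of most genes together cannot be seen. Depth is unknown, and no floor is given. The 529 entries (1.57%) without an identifier were left out. Genes whose back-transformed values averaged 1 or more were tested with limma 3.58.1 in R 4.3.3 (eBayes with a trend, 12 libraries, 4 groups), with Benjamini-Hochberg adjustment over 16817 genes and a threshold of 0.05, after tests on simulated data. Same-numbered libraries deviated together in each comparison with wild type (correlations of 0.16 to 0.49), so the replicate number was also fitted as a block. Between anac082 and anac090 they ran from -0.31 to 0.50. Sequences come from TAIR10.1 (RefSeq), whose annotation held 32454 of the identifiers, with Biopython 1.88. The members, gene lists and markers were chosen with earlier results of these data known. Named genes are the 10 members, the other tubulins, members of each list with the smallest p (up to 3 per comparison with wild type), the targeted NAC genes and the 5 genes nearest in pattern.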

Additional observations from a re-analysis of the deposited data

How the results depend on the processing

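Over the settings tried, each of the 10 tubulin genes stayed below wild type in anac017 and anac090. In anac082, TUA2 turned to 0.04 without wild type replicate 1, and without anac082 replicate 3 TUA2 turned to 0.15, TUA4 to 0.022 and TUA6 to 0.018. Leaving out 1 library at a time gave -0.23 to 0.15 for TUA2, -0.17 to 0.022 for TUA4 and -0.20 to 0.018 for TUA6. The counts of called tubulin genes depended on the setting, and the cause was not tested. In anac017 the count went from 0 to 8 with only the 2 groups compared (21.5% of tested genes called) and to 8 with array weights per library (27.3%), some fits of which stopped short of their convergence tolerance. With the replicate block it was 2 (7.16%, against 2.09% without), and with both anac082 replicate 1 and anac090 replicate 3 left out it was 9 (21.7%). Leaving out 1 library at a time gave 0 to 6 (0.291% to 17.6%). In anac082 it went from 0 to 1 with both of those libraries left out (4.28%), and leaving out 1 library at a time gave 0 throughout. In anac090 the count of 1 went to 0 with no filter on low values or with only the 2 groups compared (0.0178%), to 2 with a mean value of at least 5, to 8 with array weights (44.9%) and to 4 with the replicate block (18.2%, against 7.31% without). Leaving out 1 library at a time gave 0 to 7 (0.0654% to 29.8%). Between mutant lines, array weights gave 1 call in anac017 against anac090 and 1 in anac082 against anac090, and the other settings gave 0. The share of tested genes called is not given here for these calls, nor for the 2 filter settings in anac090. With array weights that share was 27.3% in anac017 and 44.9% in anac090 against wild type. The number of tubulin genes wholly below wild type in anac082 went from 2 to 8 without anac082 replicate 1, a setting chosen after seeing the data, as were the medians of the gene lists without that library or anac090 replicate 3. The replicate block changed no tubulin call other than those given beside their genes. With 3 libraries a group and no known depth, small differences cannot be told from the spread.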
